A study of Bos taurus with 18 samples.

Results

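The mature miRNAs of the miR-199 and miR-214 hairpins were followed in small RNA sequencing of rumen papillae, the finger-like projections that line the forestomach of cattle. The 5 miRNAs were taken by name: bta-miR-199a-3p, bta-miR-199a-5p, bta-miR-199b, bta-miR-214 and hsa-miR-214-5p. They are 5 of the 824 miRNAs counted in the series once names that stand for one miRNA were merged, from 966 names of which 759 were bovine and 207 human. The miR-214-5p arm is counted under its human name.

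The tissue came as biopsies from 9 Holstein cows that were not in milk and carried a rumen cannula, a port through the flank into the rumen. All 9 cows ate 100% forage at first (FD), followed by high-grain feeding (HG) at 65% concentrate. Of these cows, 5 were controls (CON) and 4 received a supplement labelled PHY, an abbreviation the labels do not spell out. The libraries form 4 groups: FD_CON (n = 5), FD_PHY (n = 4), HG_CON (n = 5) and HG_PHY (n = 4). The labels give no ages and do not say whether PHY was already fed when the forage biopsies were taken. Forage always preceded grain, so diet and time cannot be told apart. Replicates are numbered in each group, but the labels do not tie a number to a cow, so p-values treat the 18 libraries as separate samples although the 9 cows were sampled on both diets.

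A miRNA hairpin can release a mature strand from its left side (5p) and from its right side (3p). In mammals the miR-199 hairpins and miR-214 lie on the opposite strand within introns of dynamin genes, and a miR-199a hairpin and miR-214 can be cut from a single long noncoding transcript. These miRNAs are known for expression in mesenchymal cells, such as fibroblasts, and for links to Twist1, fibrosis and skeletal development. The 3p strands of the miR-199a and miR-199b hairpins share one sequence in mammals, so a count of miR-199a-3p cannot say which hairpin was used.

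The deposited files place bta-miR-199a-3p on the minus strand of chromosome 16, and bta-miR-214 and hsa-miR-214-5p on the same strand of that chromosome. The gap between the miR-199a-3p and miR-214 sequences is 5772 nt, and the 2 arms of miR-214 lie 19 nt apart. The listed place of bta-miR-199a-5p is chromosome 7, and that of bta-miR-199b is chromosome 11, both on the minus strand. In the RefSeq gene table for ARS-UCD2.0, used here for names only because no source used here names the build of the files, MIR199A-1 and MIR214 lie within DNM3 and the noncoding gene LOC132342463. MIR199A-2 lies within DNM2 and MIR199B within DNM1. The names thus cover hairpins on 3 chromosomes, of which only the chromosome 16 pair shares a noncoding gene in that table.

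Several of these miRNAs shared their reads with other names or loci. The authors' expected counts divide a read over every name and locus it fits, and they kept 0.333 of the raw reads of bta-miR-199a-3p and 0.334 of those of bta-miR-199a-5p. For bta-miR-214 the share kept was 0.5, since bta-miR-214 and hsa-miR-214-3p name the same strand and were merged here. Almost all reads of bta-miR-199b (0.999) and all of hsa-miR-214-5p (1) were kept. The values below are raw reads, so the abundance of miR-199a-3p and miR-199a-5p is that of all hairpins that yield them.

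Libraries held 5.74 to 15.2 M reads (M for 1e6) counted on miRNAs, out of 19.5 to 42.7 M in all, and 515 to 591 miRNAs were seen in a library. Depth differed between the groups: FD_CON libraries held 9.79 to 15.2 M counted reads and HG_CON libraries 5.74 to 9.75 M. The part of depth in the comparisons below was not tested. The library FD_CON 2 stood apart, with a summed level of the smooth muscle miRNAs miR-143 and miR-145 of 299693 CPM (reads scaled to 1e6 counted reads of a library) against 166703 CPM in the next highest library, FD_PHY 3. Estimates of miR-214 and of its ratios moved when this library was left out, as described with them.

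All 5 miRNAs were read in all 18 libraries, and all 5 passed the filter on low counts. A read covers a mature miRNA whatever its length of 22 or 23 nt. Levels are thus CPM after scaling between libraries by the trimmed mean of M values. The counts were deep for 4 of them. bta-miR-199a-3p had 26913 to 89857 reads in a library and ranked 29 of 824 by mean level, with 0.581% ± 0.0861 (SD, n = 18) of the counted reads. bta-miR-199a-5p (5112 to 15757 reads) ranked 70, bta-miR-199b (2438 to 10193 reads) ranked 92, and bta-miR-214 (626 to 2389 reads) ranked 145. hsa-miR-214-5p ranked 269 with only 37 to 228 reads in a library. If each read is a separate molecule, counting error alone is 6.62 to 16.4% of the hsa-miR-214-5p value. For bta-miR-214 it is at most 4.00%, and for bta-miR-199a-3p at most 0.610%.

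The order of the levels was the same in every library. bta-miR-199a-3p stood at 5841 ± 1033 CPM (SD, n = 18) and its partner arm bta-miR-199a-5p at 1121 ± 171 CPM. bta-miR-199b followed at 579.8 ± 118 CPM, bta-miR-214 at 136 ± 26.6 CPM and hsa-miR-214-5p at 11.4 ± 3.30 CPM. Each of them was above the next in all 18 libraries. miR-199a-3p was 5.23 ± 0.621 times as high as miR-199a-5p within a library (lowest 4.17, highest 6.18, n = 18). The step from miR-199a-5p to miR-199b was the smallest, at 1.96 ± 0.197-fold (1.46 to 2.32), and the step from miR-199b to miR-214 was 4.38 ± 1.32-fold (2.98 to 8.97). For miR-214 the 3p strand prevailed by 12.9 ± 4.17-fold over miR-214-5p (4.99 to 21.8). The right-hand strand was thus the more abundant one for both the miR-199a and the miR-214 names, with the read sharing of miR-199a-3p described above. How evenly the library kit captures different miRNAs was not tested.

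**Figure D1:**
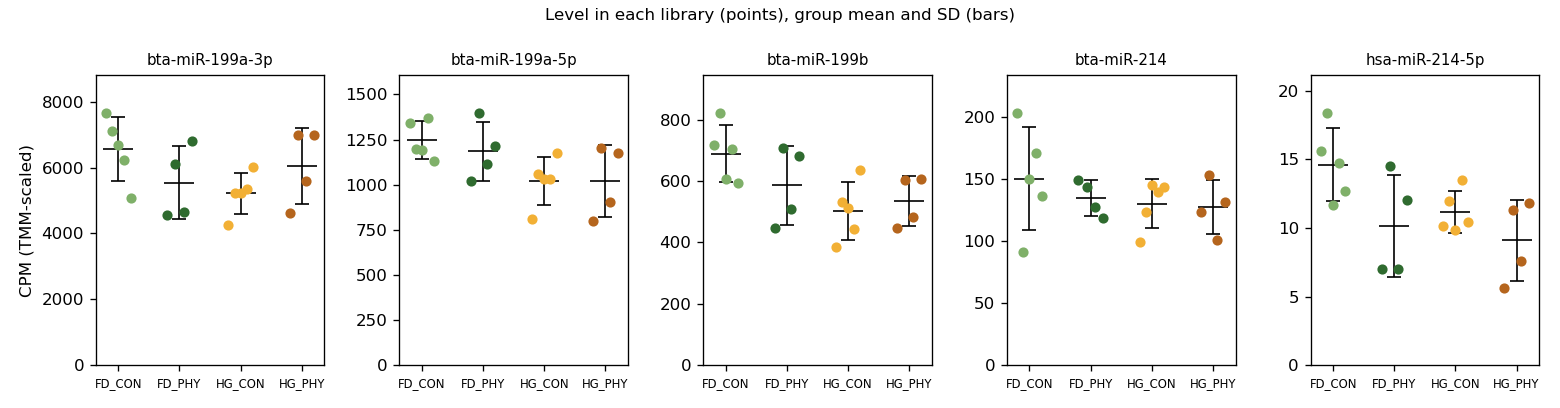
Level in CPM (y axis, linear from 0, a separate scale for each miRNA) of the 5 miRNAs in the 4 groups (x axis); points are libraries, bars the group mean and SD. FD_CON holds the highest group mean for all 5 miRNAs (6551 CPM for bta-miR-199a-3p), and the groups overlap in every panel.

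In single libraries, the level of bta-miR-199a-3p in FD_CON was 7664, 7093, 6694, 6216 and 5089.8 CPM, and in FD_PHY 4573, 6108, 4641 and 6813 CPM. In HG_CON it was 4260.1, 5234, 5216, 5340.4 and 6007 CPM, and in HG_PHY 4613, 7001, 5592 and 6975 CPM. The highest values were thus in 2 FD_CON libraries, and the lowest in HG_CON, but every pair of groups overlapped.

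bta-miR-199a-5p, the other arm of the miR-199a hairpins, was at 1344, 1197, 1194, 1372 and 1129 CPM in FD_CON and at 1018, 1399, 1112 and 1214 CPM in FD_PHY. On grain it was at 809, 1058, 1033, 1034 and 1175 CPM in HG_CON and at 800.3, 1205, 905 and 1178 CPM in HG_PHY. All grain libraries lay below the forage mean, yet the highest grain library (1205 CPM) lay above the lowest forage library (1018 CPM).

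bta-miR-199b, from the paralogous hairpin on chromosome 11, was at 719, 822, 606, 703 and 594 CPM in FD_CON and at 446, 707, 508 and 682 CPM in FD_PHY. It was at 386, 532, 511, 445 and 636 CPM in HG_CON and at 447, 605, 482 and 606 CPM in HG_PHY. Within each diet the CON and PHY libraries overlapped, and 2 of the 4 FD_PHY libraries were as low as the grain libraries.

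bta-miR-214 was at 204, 91.7, 149.9, 171 and 136 CPM in FD_CON and at 149.5, 144, 128 and 119 CPM in FD_PHY. It was at 99.1, 123, 145, 139.8 and 144 CPM in HG_CON and at 123, 154, 101 and 132 CPM in HG_PHY. FD_CON held both the highest and the lowest library of the series, the lowest being FD_CON 2.

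hsa-miR-214-5p was at 15.6, 18.4, 11.6, 14.7 and 12.7 CPM in FD_CON and at 7.02, 14.5, 7.0 and 12.0 CPM in FD_PHY. It was at 10.1, 11.9, 9.87, 13.5 and 10.4 CPM in HG_CON and at 5.64, 11.3, 7.57 and 11.8 CPM in HG_PHY. In both PHY groups, 2 libraries were below every CON library and 2 lay within the CON range. FD_CON 2, the lowest library for miR-214, was the highest for its partner arm.

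Across libraries, 4 of the 5 miRNAs varied together and miR-214 stood off. Pearson's r of log2 CPM over the 18 libraries was 0.87 between miR-199a-5p and miR-199b, which come from different chromosomes, 0.84 between miR-199a-3p and miR-199b, and 0.75 between the arms miR-199a-3p and miR-199a-5p. With Spearman's rho these were 0.90, 0.82 and 0.80, and r without the 2 libraries farthest from the median was 0.83, 0.78 and 0.64. These are descriptions over libraries that share one sequencing depth and one scaling factor for all miRNAs, and the miR-199 names can share reads.

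hsa-miR-214-5p ran with the miR-199 miRNAs, with r of 0.68, 0.70 and 0.72 to miR-199a-3p, miR-199a-5p and miR-199b (rho 0.66, 0.74 and 0.71). With its own partner arm miR-214, cut from the same hairpin, it had r of 0.19 (rho 0.19). FD_CON 2 weighs on this value: without it, r between the miR-214 arms was 0.49, and without FD_CON 1 and FD_CON 2, the 2 libraries farthest from the median, it was 0.38. Within groups, after each group's mean was taken off, it was 0.03 with all libraries. miR-214 was closest to miR-199a-5p (r = 0.56, rho 0.46). That r was 0.72 without FD_CON 2 and 0.48 without the 2 farthest libraries. With miR-199a-3p (r = 0.31, rho 0.28) r was 0.54 without FD_CON 2 but -0.07 without the 2 farthest, FD_CON 1 and HG_CON 1, so that relation rests on a few libraries. With miR-199b (r = 0.26, rho 0.28) it was 0.61 without FD_CON 2 and 0.49 without the 2 farthest. The arms of miR-214 were therefore less alike than the 2 arms of miR-199a in these libraries, though the low counts of miR-214-5p limit its r.

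**Figure D2:**
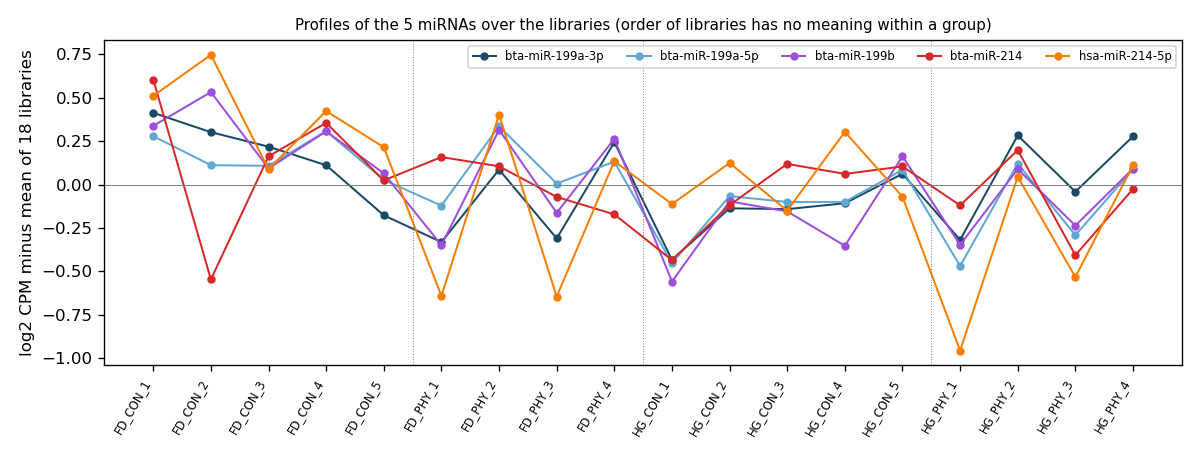
Deviation of log2 CPM from the mean of the 18 libraries (y axis) for each of the 5 miRNAs (lines) in each library (x axis, groups divided by dotted lines; the order within a group has no meaning). The 3 miR-199 lines run close together, and miR-214 drops in FD_CON 2 (91.7 CPM) where hsa-miR-214-5p is at its highest (18.4 CPM).

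The grain and forage diets were compared to see whether the miRNAs of the papillae differ after the change of feed. Averaged over CON and PHY, all 5 miRNAs had lower estimates on grain, and none passed edgeR's quasi-likelihood test at an adjusted p of 0.05 over the 468 miRNAs tested. The estimates were clearest for miR-199b and miR-199a-5p. In that comparison 1 of the 468 miRNAs was called (0.214%), and it was miR-320a, which is not among the 5. In small RNA from whole papillae, fewer cells of a type and less RNA per cell cannot be told apart.

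For miR-199b the grain mean was 517 ± 85.5 CPM (SD, n = 9) against 643 ± 116 CPM on forage (n = 9). The log2 fold change was -0.29 ± 0.12 (SE), with a 95% interval of -0.54 to -0.05 and an adjusted p of 0.317 in edgeR. All 9 grain libraries lay below the forage mean, although the diets overlapped. miR-199a-5p had 1022 ± 154 CPM on grain against 1220.0 ± 128 CPM on forage, a log2 fold change of -0.25 ± 0.10 (interval -0.46 to -0.04, edgeR adjusted p = 0.317), again with 9 of 9 grain libraries below the forage mean. As percentages the estimates were -18.4% for miR-199b and -16.0% for miR-199a-5p, and neither passed the adjustment.

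The other 3 had intervals that span 0. miR-199a-3p was at 5582 ± 944 CPM on grain and 6099 ± 1106 CPM on forage (log2 fold change -0.10 ± 0.11, interval -0.33 to 0.13, edgeR adjusted p = 0.791). miR-214 had 129 ± 19.3 and 144 ± 31.8 CPM (-0.15 ± 0.14, interval -0.43 to 0.14, edgeR adjusted p = 0.731), and its 5p arm 10.2 ± 2.39 and 12.6 ± 3.78 CPM (-0.27 ± 0.18, interval -0.65 to 0.11, edgeR adjusted p = 0.573). Grain libraries below the forage mean numbered 7 of 9, 6 of 9 and 8 of 9 for these 3.

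The 5 estimates can be set beside those of all miRNAs tested. All 5 had a log2 fold change below 0, with a median of -0.25, against 238 of all 468 tested and a median of -0.01. An unadjusted p under 0.05 with lower levels on grain was found for 2 of the 5 and for 30 of the 468 (6.41%). None of the 5 was called by DESeq2 or by limma-voom either. The miRNAs are not independent of each other, as their profiles show, so these counts describe the 5 and are no test of the group.

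In the control cows alone the estimates were larger for all 5. miR-199b averaged 689 ± 93.0 CPM in FD_CON and 502 ± 94.4 CPM in HG_CON (n = 5 each), a log2 fold change of -0.46 ± 0.16 (interval -0.78 to -0.13, edgeR adjusted p = 0.397). For miR-199a-3p the means were 6551 ± 975 and 5211 ± 624 CPM (-0.33 ± 0.15, edgeR adjusted p = 0.406). For miR-199a-5p they were 1247 ± 105 and 1022 ± 132 CPM (-0.29 ± 0.13, edgeR adjusted p = 0.430). All 5 HG_CON libraries lay below the FD_CON mean for each of the 5 miRNAs, and in each case the groups overlapped.

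The miR-214 arms had wider intervals here. miR-214 averaged 151 ± 41.6 and 130.4 ± 19.6 CPM (-0.21 ± 0.18, edgeR adjusted p = 0.803), and miR-214-5p 14.6 ± 2.63 and 11.2 ± 1.54 CPM (-0.39 ± 0.24, edgeR adjusted p = 0.699). The estimate of miR-214 rested on single libraries. In control cows it was -0.39 without FD_CON 2, its lowest library on forage, and -0.08 without FD_CON 1, its highest. Averaged over both arms of the trial, in place of -0.15, it was -0.23 without FD_CON 2 and -0.08 without FD_CON 1. For the other 4 miRNAs, leaving FD_CON 2 out gave -0.35 (miR-199a-3p), -0.34 (miR-199a-5p), -0.43 (miR-199b) and -0.33 (miR-214-5p). No miRNA of the 468 was called in control cows (0%). Unadjusted p under 0.05 with a lower level on grain was found for 3 of the 5 and for 32 of the 468 (6.84%).

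In the supplemented cows the estimates lay nearer to 0. miR-199a-3p averaged 5534 ± 1109 CPM in FD_PHY and 6045 ± 1160 CPM in HG_PHY (n = 4 each), a log2 fold change of 0.13 ± 0.16 with an interval of -0.21 to 0.47. miR-199a-5p averaged 1186 ± 163 and 1022 ± 200.3 CPM (-0.21 ± 0.15, interval -0.52 to 0.09). The log2 fold changes were -0.13 ± 0.18 for miR-199b, -0.08 ± 0.20 for miR-214 and -0.16 ± 0.28 for miR-214-5p. The adjusted p in edgeR was 0.832 or higher for each. None of the 5 had an unadjusted p under 0.05, against 33 of the 468 in either direction (7.05%), and none of the 468 was called (0%).

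PHY was compared with CON on each diet, and these comparisons share their groups with the diet comparisons above. On forage, all 5 estimates were lower in FD_PHY, as were 260 of all 468 tested. miR-214-5p had the lowest, with 10.1 ± 3.74 CPM against 14.6 ± 2.63 CPM in FD_CON and a log2 fold change of -0.52 ± 0.26 (interval -1.06 to 0.02, edgeR adjusted p = 0.929). All 4 FD_PHY libraries were below the FD_CON mean, but 2 of them lay inside the FD_CON range. The other estimates were -0.24 ± 0.16 for miR-199a-3p, -0.07 ± 0.14 for miR-199a-5p, -0.23 ± 0.17 for miR-199b and -0.16 ± 0.19 for miR-214. That of miR-214 was -0.30 without FD_CON 2 and -0.03 without FD_CON 1. With each of the 18 libraries left out in turn, the estimates ranged from -0.35 to -0.14 for miR-199a-3p, from -0.32 to -0.10 for miR-199b and from -0.72 to -0.36 for miR-214-5p. None of the 5 and none of the 468 passed (0%), and 22 of the 468 had an unadjusted p under 0.05 (4.7%).

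On grain the estimates fell on both sides of 0. miR-199a-3p had 0.21 ± 0.16 (interval -0.11 to 0.54, edgeR adjusted p = 0.725), with 6045 ± 1160 CPM in HG_PHY and 5211 ± 624 CPM in HG_CON. Its partner arm miR-199a-5p had the same mean in both groups, 1022 CPM, and a log2 fold change of 0.00 ± 0.14 (interval -0.29 to 0.29). For miR-199b the estimate was 0.09 ± 0.17, for miR-214 -0.03 ± 0.19 and for miR-214-5p -0.29 ± 0.26. None of the 468 passed (0%), none of the 5 had an unadjusted p under 0.05, and 32 of the 468 did (6.84%).

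The interaction, the grain estimate of supplemented cows minus that of control cows, asks whether the grain effect differed between them. Its estimates were above 0 for all 5, from 0.07 ± 0.20 for miR-199a-5p to 0.46 ± 0.22 for miR-199a-3p (interval 0.00 to 0.92, edgeR adjusted p = 0.997). miR-199b had 0.33 ± 0.23, miR-214 0.12 ± 0.27 and miR-214-5p 0.23 ± 0.37. For miR-214 the estimate was 0.31 without FD_CON 2 and -0.00373 without FD_CON 1. No difference between CON and PHY in the grain effect was called, among the 5 or the 468 (0%), and 10 of the 468 had an unadjusted p under 0.05 (2.14%). A larger grain estimate in control cows is thus not shown to differ from that in supplemented cows.

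**Figure D3:**
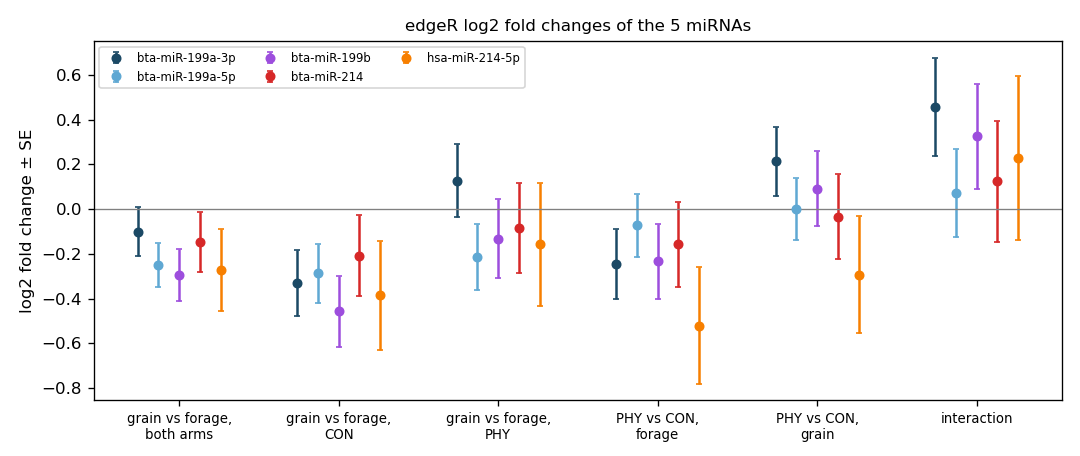
Log2 fold change and SE (y axis) of each of the 5 miRNAs in the 6 comparisons (x axis), from one edgeR fit to 18 libraries. In control cows all 5 points lie below 0, down to -0.46 for bta-miR-199b, and in the interaction all 5 lie above 0. The interaction subtracts the control estimate, so these signs are not separate findings. Of all 468 miRNAs tested, 252 were below 0 in control cows and 204 in the interaction.

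The proportion of 2 members within a library does not depend on library scaling, and it was used to compare arms and paralogs. The ratio of miR-199a-3p to miR-199a-5p was the only one of 5 ratios whose groups did not overlap in a comparison. Reads of miR-199a-3p are those of all hairpins that yield it, while miR-199b is counted under its own name. The ratio thus need not be that of the arms of a single hairpin, and the part of the mix of hairpins in it was not tested. The ratio was 5.76, 5.81, 6.18 and 5.92 in HG_PHY, and 5.26, 4.95, 5.05, 5.17 and 5.11 in HG_CON. Every HG_PHY library was thus above every HG_CON library, with means of 5.92 ± 0.186 (SD, n = 4) and 5.11 ± 0.12 (n = 5). The log2 difference was 0.21, or 1.16-fold. An exact two-sided permutation test gave p = 0.00794, the smallest that 126 arrangements can give, and an adjusted p of 0.198 over the 25 tests of ratios.

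On forage the same ratio was 5.70, 5.93, 5.61, 4.53 and 4.51 in FD_CON and 4.49, 4.37, 4.17 and 5.61 in FD_PHY. These 2 forage groups overlapped, and their libraries were more spread out than the grain ones. In supplemented cows the mean went from 4.66 ± 0.648 on forage to 5.92 ± 0.186 on grain, with no overlap, a log2 difference of 0.35 or 1.28-fold (exact permutation p = 0.0286, the smallest of 70 arrangements, adjusted p = 0.357). In control cows it was 5.25 ± 0.681 on forage and 5.11 ± 0.12 on grain (log2 difference -0.03, exact permutation p = 0.746). With 25 tests, even the smallest p that a comparison of 2 groups allows here does not pass the adjustment for a single ratio. That limit does not hold for grain against forage averaged over CON and PHY, with 17640 arrangements.

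Groups without overlap in an arm ratio were also seen for other hairpins. Of 75 hairpin names with both arms measured, 2 had no overlap between HG_PHY and HG_CON (2.67%), miR-199a and miR-18a. Between FD_PHY and HG_PHY there were 4 (5.33%), miR-199a, miR-10172, miR-30b and miR-331. The interaction of the miR-199a arm ratio, a test added after the data had been seen, was 0.39 on the log2 scale. Its exact permutation p was 0.0116 over 15876 arrangements, with an adjusted p of 0.0579 over 5 ratios. The labels CON and PHY were exchanged within each diet separately, although each cow was sampled on both. That p is exact only if PHY has no effect on either diet, so it does not test the interaction alone. With each library left out the interaction ranged from 0.34 to 0.48, with an adjusted p of 0.139 without FD_CON 2 by exact permutation. It passed an adjusted p of 0.05 when FD_CON 4 (0.0374), FD_CON 5 (0.0363), FD_PHY 4 (0.00992) or HG_CON 5 (0.0462) was left out, by the same exact permutation test. It did not pass with any other library left out. FD_CON 4 (4.53) and FD_CON 5 (4.51) held the lowest ratios of FD_CON, and FD_PHY 4 (5.61) the highest of FD_PHY, so leaving them out raises the estimate. Without HG_CON 5 the estimate stayed at 0.39, and the exact permutation p was 0.0128, against 0.0116 with all libraries. Its adjusted p of 0.0462 there was set by the miR-199a-5p to miR-199b ratio (exact permutation p = 0.0185), through the adjustment over 5 ratios.

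**Figure D4:**
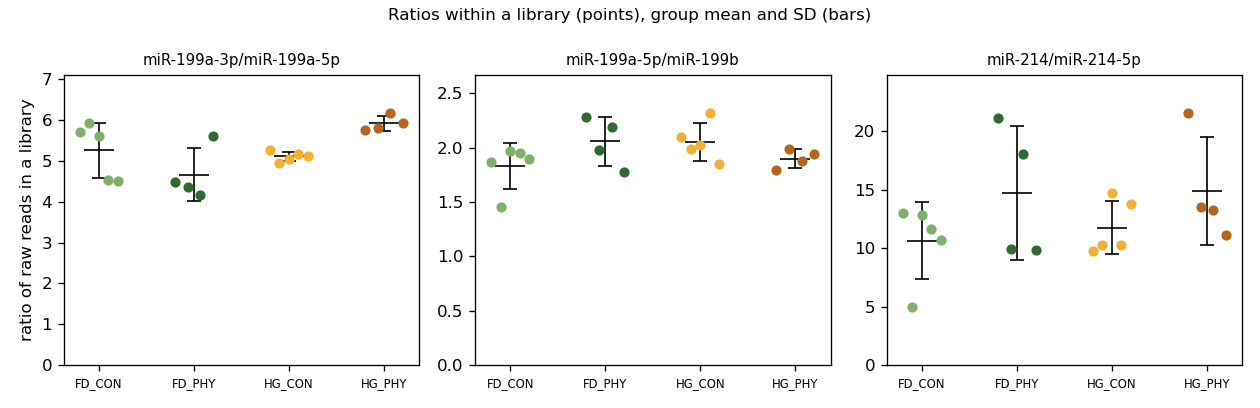
Ratio of raw reads of 2 miRNAs within a library (y axes, linear from 0) in the 4 groups (x axis), for the miR-199a arms, for miR-199a-5p over its paralog miR-199b, and for the miR-214 arms; points are libraries, bars the mean and SD. In the left panel all 4 HG_PHY libraries (5.76 to 6.18) lie above all 5 HG_CON libraries (4.95 to 5.26).

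The ratio of the paralogs miR-199a-5p and miR-199b overlapped between the groups in every comparison. Its means were 1.83 ± 0.212 in FD_CON, 2.06 ± 0.225 in FD_PHY, 2.06 ± 0.174 in HG_CON and 1.90 ± 0.0874 in HG_PHY. The smallest p was that between the control groups (log2 difference 0.17, exact permutation p = 0.0873, adjusted p = 0.546), where FD_CON 2 had the lowest ratio at 1.46. Without FD_CON 2 the log2 difference was 0.09 (exact permutation p = 0.190, adjusted p = 0.649). The interaction of this ratio was -0.28 (exact permutation p = 0.0420, adjusted p = 0.105), with the same limits of the test as for the miR-199a arms. With each library left out it ranged from -0.35 to -0.20. The value nearest to 0 was that without FD_CON 2 (adjusted p = 0.179 by exact permutation). The interaction passed without FD_PHY 4 (adjusted p = 0.0294) or HG_CON 5 (adjusted p = 0.0462), by exact permutation, and with no other library left out. Those libraries held the lowest ratios of their groups, at 1.78 and 1.85.

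The miR-214 arm ratio also overlapped between the groups. miR-214 was 10.6 ± 3.30 times its 5p arm in FD_CON, 14.7 ± 5.72 in FD_PHY, 11.7 ± 2.28 in HG_CON and 14.9 ± 4.60 in HG_PHY. Both PHY means were above both CON means, but the exact permutation p was 0.254 or higher in all 5 comparisons. The ratio of miR-199a-5p to miR-214 was 8.78 ± 2.48, 8.86 ± 1.5, 7.88 ± 0.607 and 8.06 ± 1.17 in the same order of groups (exact permutation p at least 0.298 with all libraries). That of miR-199a-3p to miR-214, the pair listed on chromosome 16, was 46.6 ± 17.5, 41.6 ± 11.5, 40.2 ± 3.07 and 47.8 ± 8.10 (exact permutation p at least 0.111 with all libraries). In each ratio that involved miR-214 the groups overlapped, and FD_CON 2 weighed on the log2 differences. For grain against forage in control cows they went from 0.20 to -0.05 (miR-214 arms), from -0.12 to 0.03 (miR-199a-5p to miR-214) and from -0.15 to 0.05 (miR-199a-3p to miR-214) without that library. For PHY against CON on forage they went from 0.46 to 0.21, from 0.04 to 0.19 and from -0.14 to 0.06.

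Other miRNAs known from mesenchymal cells, in a list chosen with earlier results of these data known, were lower in the estimate on grain as well. Of 12, all tested, 11 had a log2 fold change below 0 averaged over both arms of the trial (median -0.20), 4 had an unadjusted p under 0.05, and none was called. These 4 were miR-125b (-0.43 ± 0.13), miR-195 (-0.28 ± 0.11), miR-10a (-0.26 ± 0.12) and miR-10b (-0.27 ± 0.13). Of all 468 tested, 238 were below 0, and 30 were lower on grain with an unadjusted p under 0.05 (6.41%). The miRNAs of a list are not independent of each other, so these counts are no test of the list. The miR-29 family, which targets collagen transcripts, had 3 of 3 below 0 (median -0.21) with none called, among them miR-29a (-0.26 ± 0.09) and miR-29b (-0.21 ± 0.10). The 5 miRNAs thus had estimates on the same side as these lists, and fibroblast origin cannot be read from small RNA of whole papillae.

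Markers of several other cell types were also lower in the estimate. The 3 smooth muscle miRNAs had lower estimates on grain, at -0.51 ± 0.12 for miR-143, -0.46 ± 0.15 for miR-145 and -0.35 ± 0.15 for its 3p arm under the human name, with none called. Their summed level ranged over 139278 to 299693 CPM in FD_CON, 129713 to 166703 in FD_PHY, 103894 to 133643 in HG_CON and 103328 to 112512 in HG_PHY. The mesenchymal list summed to 10832 to 17370, 11203 to 14701, 10349 to 13277 and 9129 to 12269 CPM in the same groups. In control cows the smooth muscle median was -0.54 and the mesenchymal one -0.20. Only names found in the counts entered these lists, so a marker at 0 could not appear in them. They do not show that every listed marker was present. The epithelial list gives miR-203, and the erythroid list miR-451, under alternative spellings. Of the epithelial miRNAs 6 were found, and miR-203 was found under neither spelling. All 3 erythroid miRNAs were found.

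Both arms of the endothelial miR-126 were below 0 (median -0.23), as were 5 of 7 leukocyte miRNAs (median -0.20) and the 2 striated muscle miRNAs tested of 4 seen (median -0.25). Epithelial miRNAs, with the miR-200 family, miR-141, miR-429 and miR-205, split 2 below 0 and 4 above (6 tested of 8 listed spellings, median 0.05). The 3 erythroid miRNAs were above 0 (median 0.20). Their summed levels in FD_CON, FD_PHY, HG_CON and HG_PHY were 54799 to 71561, 52551 to 58036, 50196 to 69567 and 53921 to 66626 CPM for the epithelial list. For the endothelial list they were 13366 to 16158, 13013 to 14857, 11568 to 14189 and 9452 to 12984 CPM. The part of these cell types in the lower estimates of the 5 miRNAs was not tested.

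The miRNAs whose profiles were most like those of the 5 came from a comparison with 270 others of at least 10 CPM over the 18 libraries, as a description. miR-152 led for miR-199a-5p (r = 0.82), miR-199b (0.83) and miR-214-5p (0.76). miR-199c led for miR-199a-3p (0.75), and was among the first 3 for miR-199a-5p (0.79), miR-199b (0.81) and miR-214-5p (0.74). Most raw reads of miR-199c were shared with other names or loci, so reads counted under several names may enter these r. Of the 12 miRNAs of the mesenchymal list, 6 were among the 5 closest to at least 1 member (miR-152, miR-100, miR-195, miR-125b, miR-10a and miR-218) and 6 were not. The closest also held miRNAs from outside that list: the leukocyte miRNA miR-342 for miR-199a-5p (0.72), let-7b for miR-199a-3p (0.67), hsa-miR-29c-5p for miR-199b (0.73) and miR-27b for miR-214-5p (0.73). miR-199a-3p was followed by miR-100 (0.73) and let-7g (0.70), miR-199b by miR-10a (0.81), and miR-199a-5p and miR-214-5p had miR-195 (0.76 and 0.75). With all 18 libraries miR-214 again stood off. Its closest were miR-338 (0.67), miR-31 (0.60), miR-22-3p (0.56), hsa-miR-155-5p (0.55) and miR-103 (0.53), none of which was on the lists of the other 4. These r include FD_CON 2, and the closest miRNAs were not sought without that library. Without it, r of miR-214 to the other members rose, as given above, to 0.72 for miR-199a-5p.

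miR-199c, a bovine miRNA listed on the plus strand of chromosome 19 within NUP88, carries the family name without being among the 5. The authors' division kept 0.301 of its reads, so most of its reads were shared with other names or loci. It stood at 71.5 ± 10.9 CPM in FD_CON, 56.6 ± 13.3 in FD_PHY, 52.8 ± 9.74 in HG_CON and 51.5 ± 14.6 in HG_PHY. Its grain estimate over both arms of the trial was -0.29 ± 0.15 (edgeR adjusted p = 0.468), close in size to that of miR-199b.

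miR-3120 lies on the plus strand of chromosome 16 opposite miR-214, and the 2 mature sequences overlap by 11 nt. It was read 6 times in all, in 3 of the 18 libraries, and did not pass the filter. The miR-214 strand of this locus was read 23365 times in the same libraries.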

How the data were processed

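The deposited file of each library gives raw read counts per mature miRNA name, expected counts (adjusted counts, reads divided by the authors over names and loci) and RPM, per the file headers. Of tools, the submitters' processing notes list bcl2fastq 2.20 and, without a role, DESeq2. No source used here names the aligner or build. RPM gave only the read totals. Names whose places overlap by at least 15 nt on one strand, and a bovine and a human name of one miRNA whose total reads lay within 5%, were merged and counted under 1 name. Raw counts were tested with edgeR 4.0.16 (quasi-likelihood, TMM scaling, filterByExpr; R 4.3.3) in one fit of 4 group means, with Benjamini-Hochberg adjustment over 468 miRNAs. DESeq2 1.42.0, limma 3.58.1, other scalings, filters, adjusted counts, unmerged names and each library left out were alternatives. Log2 ratios of 2 members (0.5 added to counts) were compared with exact two-sided permutation tests, adjusted over 25. The edgeR fit was tested on simulated data. The members, lists and naming rule (the 5, up to 5 miRNAs most like each, up to 4 examples by lowest p per list) were chosen with earlier results of these data known. Libraries of a group differed beyond sampling noise in all 32 pairs, so none was treated as a copy.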

Additional observations from a re-analysis of the deposited data

Results flagged for a closer look

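One forage library of a control cow, FD_CON 2, lay far from the other 4 of its group in 3 ratios within a library, by Dixon's test at the 95% level. The ratio of miR-199a-5p to miR-199b was 1.456 there and 1.87 to 1.969 in the others. miR-199a-5p stood 13.05 times as high as miR-214, against 6.594 to 8.283 times in the others. miR-199a-3p stood 77.31 times as high as miR-214, against 36.26 to 44.64 times. Chance flags about 1 in 20 groups, and 40 groups were looked at. The 3 ratios share members, so they are not separate findings. In the same library miR-214 had 91.7 CPM and the smooth muscle miRNAs summed to 299693 CPM, and the part of either in the other was not tested.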

How the results depend on the processing

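None of the 5 miRNAs was called in any of the 6 comparisons under any alternative run or with any library left out. Precision is limited by 4 or 5 libraries a group and, for hsa-miR-214-5p, by 37 to 228 reads. The number of all miRNAs called averaged over CON and PHY was 1 in the test as reported, 0 with upper-quartile scaling, with at least 10 CPM in 4 libraries and with adjusted counts, 2 with every name on its own, 3 with limma-voom and with no filter, 4 with the replicate block and 5 with DESeq2. DESeq2 and no filter each called 1 for PHY against CON on forage, DESeq2 called 2 for PHY against CON on grain, and limma-voom called 1 for grain against forage in PHY cows, where the test as reported called 0. With a library left out these counts ranged over 0 to 3 (diet, both arms), 0 to 1 (PHY on forage) and 0 to 2 (PHY on grain). The cause was not tested.

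The estimate of miR-199a-5p for PHY on grain, near 0, turned to -0.01463 with RLE scaling, -0.01461 with DESeq2, -0.0349 with no filter and -0.007422 with adjusted counts. Estimates near 0 also turned sign with a library left out. For grain against forage in control cows the log2 ratios ranged over -0.0842 to 0.0143 (miR-199a arms), -0.23 to 0.0471 (miR-199a-3p to miR-214), -0.21 to 0.0328 (miR-199a-5p to miR-214) and -0.0523 to 0.29 (miR-214 arms). In PHY cows the ranges were -0.22 to 0.0370 (miR-214), -0.31 to 0.0479 (miR-214-5p) and -0.14 to 0.25 (miR-214 arms). Over both arms they were -0.0328 to 0.13 (miR-199a-3p to miR-214), -0.00789 to 0.0582 (miR-199a-5p to miR-199b) and -0.00013 to 0.23 (miR-214 arms). For PHY on forage they were -0.14 to 0.0101 (miR-199a-5p), -0.30 to 0.0619 (miR-199a-3p to miR-214) and -0.0568 to 0.19 (miR-199a-5p to miR-214). For PHY on grain they were -0.12 to 0.10 (miR-199a-5p), -0.00743 to 0.19 (miR-199b), -0.17 to 0.0867 (miR-214) and -0.0308 to 0.12 (miR-199a-5p to miR-214). For the interaction they were -0.0492 to 0.16 (miR-199a-5p) and -0.00554 to 0.31 (miR-214). The grain estimates of miR-199a-5p and miR-199b over both arms ranged over -0.31 to -0.20 and -0.34 to -0.25, and those of miR-199a-3p and miR-214-5p over -0.16 to -0.04 and -0.35 to -0.17.

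The labels do not say that replicate numbers mark cows. Same-numbered forage and grain libraries had r of -0.0164 to 0.393 in their deviations from the group means, over 0.1 in 3 of 9 pairs, and a library was closest to its own number in 2 of 9, so neither the labels nor this check establishes pairs. With the replicate number as a block, miR-199a-5p had -0.26 and miR-199b -0.29 on grain over both arms (edgeR adjusted p = 0.157 for each), and the block changed no call of the 5. The miR-199a arm ratio in PHY cows, 0.35, was higher on grain in 4 of 4 same-numbered pairs. Its exact sign-flip p of 0.125 (adjusted p = 0.703) is the smallest that 16 flips can give, so that test could not pass and does not show a weaker difference.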
